A study of Mus musculus with 50 samples.

Results

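The change in the cardiac transcriptome between 8 and 12 months of age was compared between the 2 strains of the study, Tgαq*44 and FVB. For each gene, the change from 8 to 12 months in FVB mice was subtracted from the change over the same interval in Tgαq*44 mice. A positive value means that a gene rose more, or fell less, in Tgαq*44 mice, and 0 means that both strains changed by the same factor. The comparison took the libraries of 20 of the 50 mice of the series, chosen by their labelled strain and age, with 5 mice in each of 4 groups and no 4-month-old mice. The groups were FVB mice at 8 months, FVB mice at 12 months, Tgαq*44 mice at 8 months and Tgαq*44 mice at 12 months. All were untreated females, and RNA came from the apex of the heart. Tgαq*44 mice carry a constitutively active Gαq subunit, driven in cardiomyocytes alone, on the FVB background. They are a single transgenic line, and the controls carry no transgene.

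Gαq couples angiotensin, endothelin and α1-adrenergic receptors to phospholipase C, and its sustained activity in cardiomyocytes drives hypertrophy and, later, heart failure (HF). A failing left ventricle typically lays down collagen, returns to genes of the foetal heart, and lowers the genes by which it burns fatty acids. In Tgαq*44 mice the study places a transition phase of HF at 8 to 10 months and end-stage HF from 12 months. The interval examined thus runs from the one stage into the other.

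Libraries held 8772914 to 18945524 counts assigned to genes, and levels below are CPM (counts scaled to a common library total) after TMM scaling of library sizes over the 20 libraries. Gnaq, the gene of the Gαq subunit, stood at 23.5, 23.5, 17.6, 18.9 and 13.5 CPM in FVB mice at 8 months and at 23.8, 23.9, 29.04, 17.4 and 15.5 at 12 months. The Tgαq*44 mice stood at 36.1, 46.1, 34.6, 40.9 and 32.4 CPM at 8 months and at 33.1, 31.05, 40.7, 28.7 and 28.2 at 12 months. They were thus above the FVB mice of 8 months without overlap, and above those of 12 months by 0.56 on the log2 scale (adjusted p = 0.0076, edgeR quasi-likelihood test) with 1 FVB mouse inside their range. Its change did not pass the test of a strain difference (log2 -0.42 (SE 0.23, adjusted p = 0.42)). Defining genes of ventricular cardiomyocytes were high in all 20 libraries, where 12 markers summed to 79601 to 95574 CPM and 72621 to 97165 CPM in FVB mice at 8 and 12 months and to 71772 to 81399 and 58038 to 71966 CPM in Tgαq*44 mice.

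The library of Tgαq*44 mouse 4 at 8 months stood apart from the other 19. It held Myh4, the fast IIb myosin of skeletal muscle, at 572 counts, or 30.2 CPM of the library total, while 17 of the other libraries held no count of it and the other 2 held 1 count each. Of 9 skeletal muscle markers measured, 7 were more than 5 times higher in this library than in any other. It was also the highest of the 20 in all 7 B cell markers, all 8 epicardial and mesothelial markers and 6 of 7 adipocyte markers. Igkc, the immunoglobulin κ constant chain of B cells, was at 253 CPM of the library total there and at 1.10 to 5.59 elsewhere. Left out of the comparison, this library changed the number of genes passing the test from 365 to 331, of which 306 were shared, and all 365 genes kept their direction. Results that touch these cell types are given without it as well. The 4 adipocyte markers tested had a median strain difference in change of -0.49 with this library and 1.08 without it. For the 3 skeletal muscle markers tested it was -0.70 with the library and -0.35 without it. In both lists 0 genes passed the test of a difference in either fit.

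The share of counts from the genes of the mitochondrial genome was lower in Tgαq*44 than in FVB mice at each age, without overlap. No test between the strains was run on this share. In both strains its mean was lower at 12 than at 8 months. It was 26.0 ± 4.72% at 8 months and 22.5 ± 2.04% at 12 months in FVB mice (mean ± SD, n = 5), a difference within the spread of the mice (two-sided exact permutation test, p = 0.18). The Tgαq*44 share was 16.3 ± 1.61% at the younger and 14.3 ± 0.964% at the older age (two-sided exact permutation test, p = 0.032, n = 5). The values of the individual Tgαq*44 mice were 15.2 to 19.0% at 8 months and 12.9 to 15.6% at 12 months, so the ages overlapped, and with 1 mouse left out p ran from 0.016 to 0.071.

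The progression from 8 to 12 months moved many more genes in Tgαq*44 mice than in FVB mice, and for a subset of genes the difference itself passed the test. Of 14779 genes tested, 365 differed in their change between the strains at an adjusted p under 0.05, which is 2.47% of the genes (edgeR). Of these, 174 had a higher change in Tgαq*44 mice (1.18%) and 191 a lower one (1.29%). With a difference of more than 1 on the log2 scale as well, the study's cut-off for a differentially expressed gene (DEG), 84 (0.568%) and 113 (0.765%) genes were counted. The strains' own changes over the interval gave 1828 genes in Tgαq*44 mice (12.4%), 994 higher (6.73%) and 834 lower (5.64%) at 12 months. In FVB mice they gave 50 genes (0.338%), 28 higher (0.189%) and 22 lower (0.149%). Between the strains, 4788 genes (32.4%) differed at 8 months and 6215 (42.1%) at 12 months. At an unadjusted p under 0.05 the FVB change gave 1978 genes, the Tgαq*44 change 3753 and the strain difference in change 2151 of the 14779 (edgeR). The last is the number over all genes to set beside the unadjusted counts of lists below. Likewise, the shares of all genes given here are those to set beside the counts of list members that passed. The number passing in FVB mice depended on single libraries, with 15 to 170 genes when 1 mouse was left out in turn.

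For most of these 365 genes the Tgαq*44 mice had the larger change. Among the 174 higher genes the median change was 0.92 in Tgαq*44 mice and -0.09 in FVB mice on the log2 scale, and 155 of them passed the test in Tgαq*44 mice alone. Among the 191 lower genes the medians were -0.88 and 0.21, with 154 passing in Tgαq*44 mice alone. In 20 of the higher genes and 38 of the lower genes the FVB change was the larger. These values describe the genes and are no test, since the same mice chose them.

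**Figure D1:**
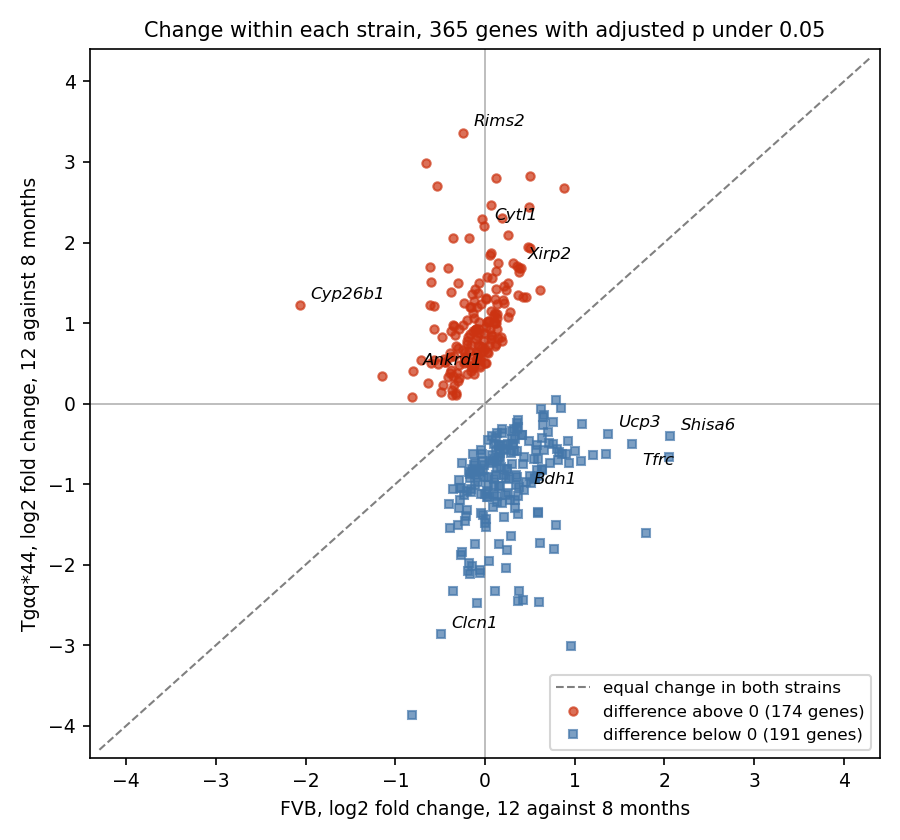
Change from 8 to 12 months in FVB mice (horizontal axis, log2) against the change in Tgαq*44 mice (vertical axis, log2) for the 365 genes that passed, with the 174 higher and 191 lower genes in separate colours and a dashed line at equal change. Most of them lie far from 0 on the vertical axis and near 0 on the horizontal one, and Tfrc, Ucp3 and Shisa6 lie to the right with a rise in FVB mice.

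Over the 365 genes that passed, Tgαq*44 mouse 5 at 12 months was most often the nearest of its group to the 8-month mice. It was the lowest of the 5 in 88 of the 174 higher genes and the highest of the 5 in 78 of the 191 lower genes. The summed level of 36 collagen and interstitial matrix genes went the other way, with this mouse the highest of the 5 at 16658 CPM. Without this mouse 535 genes passed the test, and 273 without Tgαq*44 mouse 2 at 12 months, which were the limits over the 20 fits with 1 mouse left out.

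Extracellular matrix genes rose between 8 and 12 months in Tgαq*44 mice, and a share of them rose more than in FVB mice. Of 36 genes of collagens and the interstitial matrix, 13 had a higher change in Tgαq*44 mice and 0 a lower one, beside 1.18% of all genes higher. Their median strain difference was 0.50 on the log2 scale, beside 0.01 for all genes. In the Tgαq*44 change alone 24 of the 36 rose and 0 fell, beside 6.73% and 5.64% of all genes, and in the FVB change 0 passed (edgeR). The 13 genes were Col12a1, Comp, Lox, Ctgf, Thbs4, Ltbp2, Cilp, Col8a1, Loxl3, Eln, Col5a2, Postn and Dcn.

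Col12a1 codes for collagen XII, which coats the surface of collagen fibrils (chr9:79598991-79718831, - strand, GRCm38). In FVB mice it was at 0.805, 0.5597, 0.844, 0.607 and 0.685 CPM at 8 months and 0.862, 1.23, 0.993, 0.789 and 1.199 CPM at 12 months. Levels in Tgαq*44 mice were 3.74, 4.06, 3.34, 4.86 and 4.54 CPM at 8 months and 34.2, 38.3, 24.4, 24.3 and 25.5 CPM at 12 months. The FVB ages overlapped near 1 CPM, whereas the lowest 12-month Tgαq*44 mouse was several times above the highest 8-month one. The Tgαq*44 change was 2.83 and the strain difference in change 2.33 (SE 0.31, adjusted p = 0.00021) on the log2 scale (edgeR).

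Ctgf, connective tissue growth factor, a matrix-associated regulator of fibrosis, was at 259, 317, 283, 382 and 440.1 CPM in Tgαq*44 mice at 8 months and 1042, 1031, 1003, 878 and 1064 CPM at 12 months. FVB mice held 60.7 to 93.98 CPM at 8 months and 40.5 to 125 CPM at 12 months. All 10 Tgαq*44 mice were above all 10 FVB mice, and the Tgαq*44 ages did not overlap. Its strain difference in change was 1.56 (SE 0.28, adjusted p = 0.0023) (edgeR). Comp and Thbs4, both thrombospondins of the matrix, differed by 2.25 (SE 0.39, adjusted p = 0.0017) and 1.48 (SE 0.24, adjusted p = 0.00081). Comp rose from 3.16 ± 0.834 to 13.4 ± 4.62 CPM in Tgαq*44 mice and was 1.11 ± 0.161 and 0.992 ± 0.359 CPM in FVB mice (mean ± SD, n = 5).

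Enzymes and fibre proteins of the matrix moved the same way. Lox and Loxl3, lysyl oxidases that cross-link collagen and elastin, differed by 1.83 (SE 0.45, adjusted p = 0.023) and 0.92 (SE 0.23, adjusted p = 0.028). Lox passed in 18 of the 20 fits with 1 mouse left out, not without FVB mouse 1 or 4 at 8 months, and had an adjusted p of 0.067 by limma-voom. Loxl3 passed in 13 of the 20 fits (edgeR). Eln, elastin, differed by 0.90 (SE 0.23, adjusted p = 0.035) and passed in 8 of the 20 fits, and Ltbp2, which binds elastic microfibrils, differed by 1.28 (SE 0.28, adjusted p = 0.010). Cilp, a cartilage intermediate layer protein secreted by cardiac fibroblasts, differed by 1.26 (SE 0.24, adjusted p = 0.0034) but had an adjusted p of 0.055 when all 10 age groups entered the fit (edgeR). The small proteoglycan decorin, Dcn, differed by 0.80 (SE 0.17, adjusted p = 0.0090).

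Postn, periostin of activated fibroblasts, passed near the threshold. It was at 219, 217, 181, 209 and 215 CPM in Tgαq*44 mice at 8 months, of which the 181 of mouse 3 stood below the others, and at 438 to 747 CPM at 12 months. FVB mice held 26.9 to 48.1 and 44.7 to 67.6 CPM. Its strain difference in change was 0.80 (SE 0.21, adjusted p = 0.039), and it passed in 8 of the 20 fits with 1 mouse left out, with adjusted p from 0.012 to 0.086 (edgeR). Its adjusted p was 0.14 with all 10 age groups in the edgeR fit, and it did not pass by limma-voom either. Col1a2, a chain of the main fibril-forming collagen, did not pass at 0.66 (SE 0.20, adjusted p = 0.081), although it rose in Tgαq*44 mice by 0.74. Among 20 matrix proteases and their inhibitors, 9 rose in Tgαq*44 mice and 1 fell, beside 6.73% and 5.64% of all genes. None of them passed the test of a strain difference by edgeR (median 0.38), while 2 passed by limma-voom and 4 by DESeq2. At an unadjusted p under 0.05 (edgeR) there were 12, of which 8 were higher and 4 lower, beside 2151 of all 14779 genes.

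Markers of activated fibroblasts moved with the matrix genes. Of 10 such markers, 6 had a higher change in Tgαq*44 mice, beside 1.18% of all genes (Thbs4, Comp, Cilp, Ltbp2, Ddah1 and Postn), and 5 of these 6 are also among the matrix genes above. Their summed level was 231 to 428 CPM in FVB mice at 8 months and 271 to 529 CPM at 12 months. The sum in Tgαq*44 mice was 618 to 796 CPM at 8 months and 1212 to 1543 CPM at 12 months. The Tgαq*44 ages did not overlap and the FVB ages did. Of 8 general fibroblast markers only Dcn passed, and their summed level was 4386 to 4767 and 4655 to 6183 CPM in Tgαq*44 mice at the respective ages. In bulk tissue, more cells of a type and more RNA per cell cannot be told apart, and the part of cell numbers in the matrix result was not tested.

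Some ligands and receptors of the TGF-β family rose more in Tgαq*44 mice. Of 25 family genes tested, 5 had a higher change there, beside 1.18% of all genes, namely the ligands Tgfb2, Bmp6 and Bmp4 and the receptors Tgfbr1 and Tgfbr2, and 0 a lower one (median 0.17). In the Tgαq*44 change 8 of the 25 rose and 0 fell, beside 6.73% and 5.64% of all genes, and 10 of the 25 had a strain difference below 0.

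Tgfb2 (chr1:186622792-186705989, - strand, GRCm38) codes for the TGF-β2 ligand. FVB mice held 42.1, 31.3, 34.98, 41.1 and 36.9 CPM at 8 months and 29.5, 39.2, 24.5, 35.3 and 49.8 CPM at 12 months. The Tgαq*44 values were 96.5, 98.4, 91.8, 106 and 108 CPM at 8 months and 273, 279.9, 407, 233 and 225 CPM at 12 months. The Tgαq*44 mice of 8 months already lay above all FVB mice, and those of 12 months lay well above the 8-month mice, with mouse 3 the highest. Its strain difference was 1.57 (SE 0.23, adjusted p = 0.00037) on the log2 scale (edgeR).

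Bmp6, a bone morphogenetic protein best known for controlling hepcidin and iron, was no different between the strains at 8 months beyond the spread (-0.16, adjusted p = 0.22, edgeR). It stood at 43.8, 46.5, 45.7, 44.3 and 42.4 CPM in Tgαq*44 mice at 8 months and at 71.2, 81.1, 86.6, 69.998 and 61.7 CPM at 12 months, against 44.4 to 57.7 and 40.6 to 46.8 CPM in FVB mice. All 5 Tgαq*44 mice of 12 months were above the other 15 mice. Its strain difference in change was 0.93 (SE 0.14, adjusted p = 0.00041), and a gene on the opposite strand, Txndc5, overlaps its exons. Bmp4 and the type I receptor Tgfbr1 differed by 0.99 (SE 0.18, adjusted p = 0.0029) and 0.95 (SE 0.21, adjusted p = 0.013). The type II receptor Tgfbr2 differed by 0.49 (SE 0.13, adjusted p = 0.042), and it passed in 4 of the 20 fits with 1 mouse left out (edgeR). Its adjusted p was 0.052 with median-of-ratios scaling, 0.057 without mitochondrially encoded genes and 0.20 with no filter on low counts (edgeR).

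The lowest p over all genes belonged to Cytl1, a small secreted cytokine-like protein used here as an endocardial marker (chr5:37735519-37739820, + strand, GRCm38). FVB mice held 30.6, 30.1, 28.04, 26.3 and 32.7 CPM at 8 months and 23.7, 32.1, 28.95, 37.6 and 23.8 CPM at 12 months. Levels in Tgαq*44 mice were 31.8, 30.5, 29.4, 32.9 and 28.3 CPM at 8 months and 145, 178, 139, 139.6 and 102 CPM at 12 months. At 8 months the strains overlapped (log2 0.05, adjusted p = 0.81), and at 12 months the lowest Tgαq*44 mouse was at 102 CPM and the highest FVB mouse at 37.6. Its strain difference was 2.22 (SE 0.19, adjusted p = 3.0e-07), and it passed in each of the 20 fits with 1 mouse left out (edgeR). The other 5 endocardial markers did not pass.

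**Figure D2:**
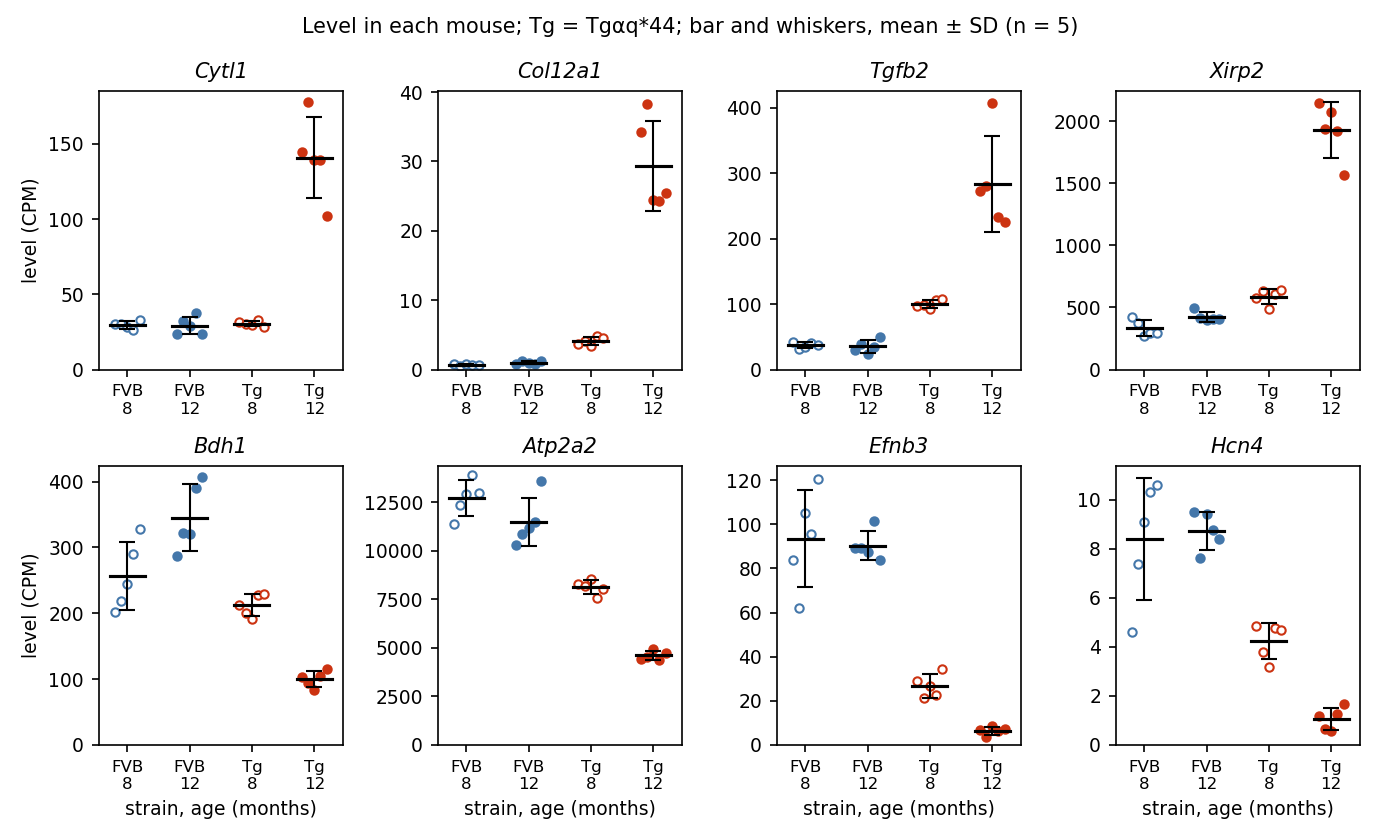
Level in each mouse (CPM, TMM-scaled, linear axis from 0) of Cytl1, Col12a1, Tgfb2, Xirp2, Bdh1, Atp2a2, Efnb3 and Hcn4 in FVB and Tgαq*44 mice at 8 and 12 months, with 5 points a group, a bar at the group mean and whiskers of ± SD. In each of the 8 panels the Tgαq*44 mice of 8 and 12 months do not overlap, and the FVB mice of the same ages do.

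Genes of cardiomyocyte load and of the intercalated disc were split. Of 11 foetal and hypertrophic cardiac genes tested, 3 had a higher change in Tgαq*44 mice (Xirp2, Ankrd1 and Ctgf) and 0 a lower one, beside 1.18% of all genes higher, with a median of 0.80. Nppa and Myh7 were not among them.

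Xirp2 codes for xin actin-binding repeat protein 2, which binds actin at the intercalated disc (chr2:67446002-67526614, + strand, GRCm38). FVB mice held 421, 377, 273, 292 and 298 CPM at 8 months and 496, 417, 402, 409 and 408 CPM at 12 months. The Tgαq*44 mice were at 579, 634, 486, 606 and 637 CPM at 8 months and 2148, 1934, 2074, 1917 and 1565 CPM at 12 months. The lowest 12-month Tgαq*44 mouse was at 1565 CPM and the highest of the other 15 mice at 637. The strain difference was 1.35 (SE 0.17, adjusted p = 0.00014), and the Tgαq*44 change alone was 1.71 (edgeR). An antisense gene, Gm13601, shares exon sequence with Xirp2, and since no source states whether counting used the strand, the pair cannot be told apart.

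Ankrd1, a titin-associated protein that responds to mechanical load, passed with a change in FVB mice. FVB mice held 2711, 2483, 1650.1, 1660.3 and 1509 CPM at 8 months and 1236, 1249, 1151, 807 and 1290.1 CPM at 12 months. In the other strain it was at 2487, 2229, 2436, 2369.9 and 2188 CPM at 8 months and 3907, 3765, 2131, 2883 and 2824 CPM at 12 months. The FVB ages were apart, with the older mice lower, and the Tgαq*44 ages overlapped. The FVB change was -0.80 (SE 0.17, adjusted p = 0.040), that of Tgαq*44 mice 0.41 (SE 0.17, adjusted p = 0.13), and the strain difference in change 1.21 (SE 0.24, adjusted p = 0.0057) (edgeR).

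Nppa, which codes for atrial natriuretic peptide, was at 755, 716, 747, 1747 and 978 CPM in Tgαq*44 mice at 8 months and 1847, 1083, 1218, 3562 and 2940.4 CPM at 12 months. FVB mice were at 20.5 to 70.04 and 17.1 to 65.5 CPM. All Tgαq*44 mice were far above FVB mice at both ages, and their own ages overlapped. Its strain difference did not pass at 1.22 (SE 0.52, adjusted p = 0.26), and without Tgαq*44 mouse 4 at 8 months it was 1.53 (adjusted p = 0.13, edgeR). Myh7, the β-myosin heavy chain of the foetal ventricle, and Des, desmin, did not pass either, at 0.80 (SE 0.25, adjusted p = 0.096) and 0.75 (SE 0.22, adjusted p = 0.078).

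Some of the largest log2 differences were of genes at a few CPM. Rims2, a scaffold of the presynaptic release site, was at 0.548, 0.435, 0.519, 0.466 and 0.293 CPM in Tgαq*44 mice at 8 months and 4.93, 5.11, 5.82, 5.22 and 2.67 CPM at 12 months. FVB mice held 0.173 to 0.69003 and 0.171 to 0.329 CPM. The 12-month Tgαq*44 mice were all above the other 15 mice, with mouse 5, at 2.67, the lowest of them. Its strain difference in change was 3.61 (SE 0.54, adjusted p = 0.00043) (edgeR). Lgi2, a secreted leucine-rich protein of the brain, differed by 3.24 (SE 0.52, adjusted p = 0.00091) and went from 0.805 ± 0.1901 to 5.38 ± 2.48 CPM in Tgαq*44 mice, with 9.70 CPM in mouse 3.

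Ryr3, the ryanodine receptor isoform that is minor in the heart beside Ryr2, was at 1.64, 1.88, 1.11, 2.38 and 1.39 CPM in Tgαq*44 mice at 8 months and 13.4, 8.03, 18.6, 10.2 and 9.97 CPM at 12 months. FVB levels were 0.779 to 1.904 and 0.921 to 2.16 CPM, so the 12-month Tgαq*44 mice stood alone. It differed by 2.69 (SE 0.43, adjusted p = 0.00083), and Aven on the opposite strand overlaps its exons. Gnal, the stimulatory G protein α subunit of olfactory and striatal neurons, differed by 2.40 (SE 0.42, adjusted p = 0.0017) and Ckmt1, the ubiquitous mitochondrial creatine kinase, by 2.41 (SE 0.51, adjusted p = 0.0081) (edgeR). Adgra1, an adhesion G protein-coupled receptor, differed by 2.33 (SE 0.52, adjusted p = 0.012), Ahsg, the plasma protein fetuin-A, by 2.12 (SE 0.39, adjusted p = 0.0028), and Fam180a by 2.09 (SE 0.39, adjusted p = 0.0033).

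Fgf23, the phosphate-regulating hormone of bone, had the largest own rise in Tgαq*44 mice among the genes named here and did not pass the test of a strain difference. It was at 8.403, 8.26, 4.45, 13.6 and 5.86 CPM in Tgαq*44 mice at 8 months and 107, 115, 72.5, 78.6 and 95.1 CPM at 12 months. FVB mice held 0 to 0.460 CPM over both ages, with 1 library of each age at 0. The Tgαq*44 change was 3.51 (SE 0.22, adjusted p = 2.1e-10), but the FVB change was known only with a standard error of 1.06 at these counts, and the difference was 4.18 (SE 1.25, adjusted p = 0.075) (edgeR). The difference passed in 4 of the 9 alternatives that kept all mice and in 2 of the 20 fits with 1 mouse left out.

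Otulin, a deubiquitinase that removes linear ubiquitin chains, was among the 8 rises with the lowest p. It was at 32.1, 32.5, 32.1, 35.1 and 32.8 CPM in Tgαq*44 mice at 8 months and 54.8, 54.7, 47.1, 41.1 and 48.9 CPM at 12 months. It was at 25.8, 29.8, 25.2, 28.3 and 25.8 CPM in FVB mice at 8 months and 20.9, 22.6, 18.9, 21.2 and 22.5 CPM at 12 months. The ages did not overlap in either strain and moved in opposite directions, although the FVB change did not pass (adjusted p = 0.11). The strain difference in change was 0.93 (SE 0.13, adjusted p = 0.00027) (edgeR). Fmo2, a flavin-containing monooxygenase, differed by 1.81 (SE 0.25, adjusted p = 0.00021) and Pamr1, a secreted peptidase-domain protein of muscle, by 1.49 (SE 0.20, adjusted p = 0.00021).

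Among cytokines, Il33, an alarmin released by stromal cells, went from 8.33 ± 1.61 to 14.9 ± 3.41 CPM in Tgαq*44 mice and was 6.97 ± 1.57 and 4.95 ± 0.53001 CPM in FVB mice, a difference of 1.31 (SE 0.25, adjusted p = 0.0039) (edgeR). Of 22 cytokine and chemokine genes, 4 passed higher (Il33, Ccl9, Ccl6 and Cxcl14) and 1 lower (Ccl7), beside 1.18% and 1.29% of all genes. Ccl6, Cxcl14 and Ccl7 differed by 1.25, 1.30 and -1.61 and passed in 12 of the 20 fits, 10 of the 20 fits and 6 of the 20 fits with 1 mouse left out, and by limma-voom their adjusted p were 0.066, 0.056 and 0.061. Ccl9 differed by 1.52 (SE 0.37, adjusted p = 0.023) and passed in 18 of the 20 fits with 1 mouse left out, not without FVB mouse 3 at 8 months or Tgαq*44 mouse 2 at 12 months, and by limma-voom its adjusted p was 0.14. Of 5 lymphatic endothelial markers 2 passed higher, beside 1.18% of all genes, and the other 3 did not pass. The 2 were Lyve1, a hyaluronan receptor, and Reln, reelin, with 1.00 (SE 0.23, adjusted p = 0.017) and 1.51 (SE 0.29, adjusted p = 0.0042) (edgeR). The 5 markers summed to 159 to 177 CPM at 8 months and 179 to 239.8 CPM at 12 months in Tgαq*44 mice and to 137 to 179.9 and 162 to 173 CPM in FVB mice.

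Cyp26b1, which degrades retinoic acid, had a large difference and unequal mice within its groups. It was at 59.3, 30.4, 48.4, 35.4 and 9.67 CPM in FVB mice at 8 months and 4.19, 3.93, 3.81, 3.75 and 28.9 CPM at 12 months. The Tgαq*44 values were 5.57, 3.91, 8.38, 3.104 and 4.54 CPM at 8 months and 7.898, 20.6, 10.7, 14.5 and 5.62 CPM at 12 months. FVB mouse 5 at 12 months stood well above the other 4, and the ages overlapped in both strains. The difference was 3.28 (SE 0.74, adjusted p = 0.013), while neither own change passed, with -2.06 (SE 0.51, adjusted p = 0.071) in FVB and 1.22 (SE 0.54, adjusted p = 0.15) in Tgαq*44 mice (edgeR).

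Genes for the use of fatty acids and ketones as fuel fell in Tgαq*44 mice between 8 and 12 months, and for some of them the fall was larger than the change in FVB mice. Of 27 fatty acid oxidation genes, 6 had a lower change in Tgαq*44 mice and 0 a higher one, beside 1.29% of all genes lower, and the median was -0.48. In the Tgαq*44 change alone 19 fell and 1 rose, beside 5.64% and 6.73% of all genes. The number of fatty acid oxidation genes passing ran from 3 to 9 with 1 mouse left out.

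Bdh1 codes for the mitochondrial dehydrogenase of the ketone body β-hydroxybutyrate (chr16:31422280-31458901, + strand, GRCm38). FVB mice held 201, 218, 245, 289.6 and 328 CPM at 8 months and 287, 322, 319.97, 390.3 and 408 CPM at 12 months. The transgenic mice held 212, 200.2, 191, 227 and 229 CPM at 8 months and 103, 94.2, 83.5, 105 and 115 CPM at 12 months. At 8 months the strains overlapped, and at 12 months the lowest FVB mouse was far above the highest Tgαq*44 mouse. Its strain difference was -1.51 (SE 0.18, adjusted p = 8.5e-05) and the own change of Tgαq*44 mice -1.08 (edgeR). The gene Gm15743 overlaps its exons on the opposite strand. Of the 19 genes of branched-chain amino acid and ketone oxidation, Bdh1 alone passed, while 12 fell in the Tgαq*44 change, beside 5.64% of all genes.

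Within the mitochondrial β-oxidation cycle, Hadha, the α subunit of the trifunctional protein, was at 953, 784, 1039.6, 1105 and 998 CPM in FVB mice at 8 months and 831, 836, 941, 890.4 and 989 CPM at 12 months. The Tgαq*44 values were 572, 556, 625, 492 and 513 CPM at 8 months and 347, 313, 298, 325 and 345 CPM at 12 months. The FVB ages overlapped and the Tgαq*44 ages did not. It differed by -0.64 (SE 0.14, adjusted p = 0.012). Eci1, the isomerase needed for unsaturated fatty acids, fell from 190.2 ± 21.3 to 96.8 ± 12.3 CPM in Tgαq*44 mice and differed by -0.89 (SE 0.17, adjusted p = 0.0032) (edgeR).

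The remaining members were nearer the threshold. Acaa2, the thiolase of the last step, differed by -0.65 (SE 0.17, adjusted p = 0.039) and passed in 8 of the 20 fits with 1 mouse left out. Etfdh, which hands electrons from β-oxidation to ubiquinone, differed by -0.53 (SE 0.14, adjusted p = 0.037) and passed in 11 of the 20 fits, and it had an adjusted p of 0.13 with no filter on low counts. Fabp3, the fatty acid carrier of heart muscle, differed by -0.78 (SE 0.21, adjusted p = 0.042) and passed in 7 of the 20 fits, not without Tgαq*44 mouse 4 at 8 months (edgeR). The sixth, Ucp3, passed through its rise in FVB mice and is described with the genes of that kind. Of the genes that did not pass, Acadvl, the very-long-chain acyl-CoA dehydrogenase, differed by -0.55 (SE 0.15, adjusted p = 0.051) and Cpt2 by -0.56 (SE 0.18, adjusted p = 0.10).

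Of 60 nuclear genes of oxidative phosphorylation, 57 had a strain difference below 0, with a median of -0.30, but only Sdhc, a membrane subunit of succinate dehydrogenase, passed, at -0.55 (SE 0.12, adjusted p = 0.014), and it had an adjusted p of 0.11 with no filter on low counts (edgeR). Over all genes tested 51.5% had a strain difference above 0. In the Tgαq*44 change alone 32 of the 60 fell and 0 rose, beside 5.64% and 6.73% of all genes. All 19 tricarboxylic acid cycle genes tested had a strain difference below 0 (median -0.28), and 14 of them fell in Tgαq*44 mice, beside 5.64% of all genes. None passed the test of a difference by edgeR, with 4 at an unadjusted p under 0.05, 1 by limma-voom and 2 by DESeq2. All 19 mitochondrial ribosomal protein genes were below 0 as well (median -0.33), with 0 passing by edgeR, limma-voom or DESeq2 and 7 at an unadjusted p under 0.05. The 10 mitochondrially encoded genes tested had a median of 0.08, and the 21 glycolysis genes one of 0.02. No gene of these 2 lists passed by edgeR, limma-voom or DESeq2, and at an unadjusted p under 0.05 there were 0 and 2.

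All 12 markers of ventricular cardiomyocytes had a strain difference below 0, where 51.5% of all genes were above 0. The median of the 12 was -0.31, and 1 of them, Fabp3, passed. Their summed level, given above, did not overlap between the Tgαq*44 mice of 8 months and those of 12 months, apart from 12-month mouse 5 at 71966 CPM against the lowest 8-month mouse at 71772. The part of the share of cardiomyocyte RNA in the result was not tested.

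**Figure D3:**
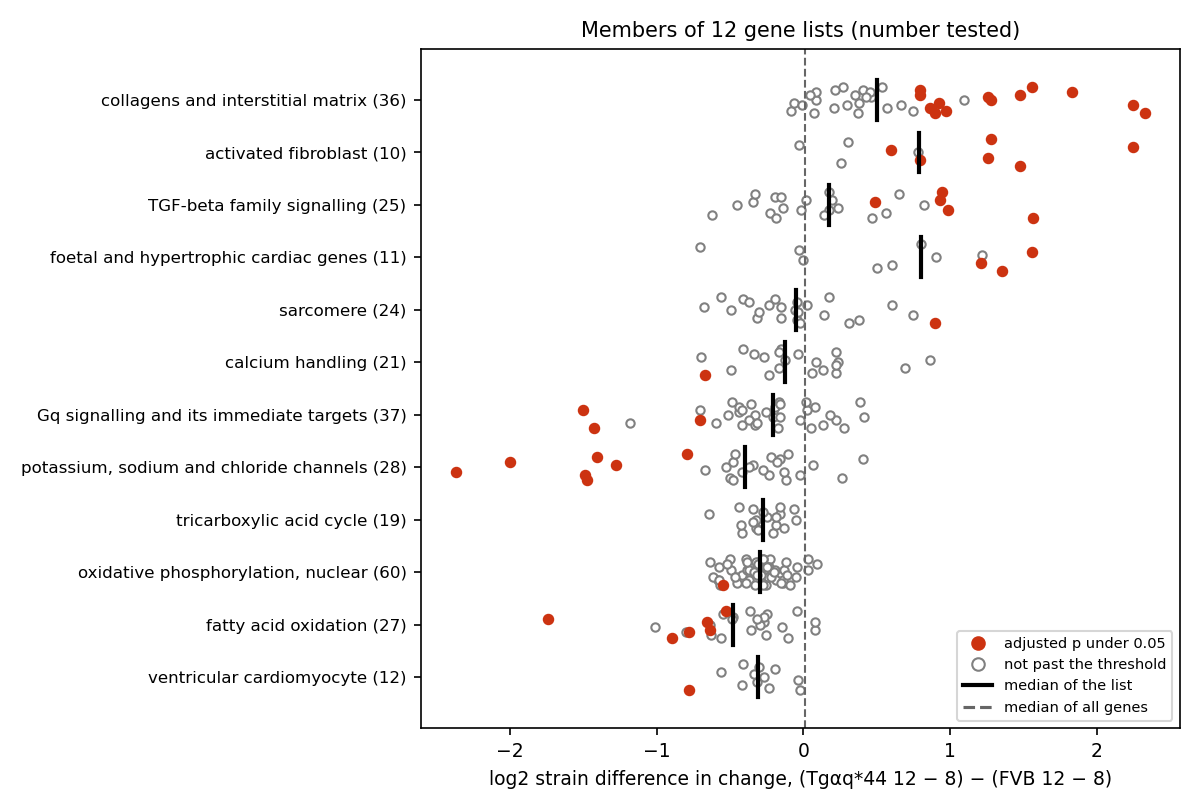
Strain difference in change (log2) of each gene of 12 lists, with 1 point a gene, genes passing an adjusted p under 0.05 in colour and a bar at the median of the list. Collagen and TGF-β genes that pass lie above 0, fatty acid oxidation and channel genes that pass lie below 0, and the tricarboxylic acid cycle genes lie below 0 without passing.

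Acox2, a peroxisomal oxidase of branched fatty acids and bile acid precursors, was at 5.75, 4.06, 1.41, 7.19 and 8.199 CPM in Tgαq*44 mice at 8 months and 0.475, 1.26, 0.485, 1.25 and 1.34 CPM at 12 months. FVB mice held 0.347 to 0.519 and 0.526 to 1.001 CPM. The gene was thus high in 8-month Tgαq*44 mice, with 1 mouse near 1.4 CPM, and near the FVB level at 12 months. It differed by -3.07 (SE 0.62, adjusted p = 0.0065), with an adjusted p of 0.051 by limma-voom (edgeR otherwise). Ces1d, a carboxylesterase, and Dgat2, the last step of triglyceride synthesis, differed by -1.80 (SE 0.25, adjusted p = 0.00021) and -1.03 (SE 0.17, adjusted p = 0.00092). Dgat2 and Lpl were the 2 of 20 triglyceride and lipoprotein genes that passed, both lower, beside 1.29% of all genes lower. Lpl, lipoprotein lipase, differed by -0.55 (SE 0.15, adjusted p = 0.047) and passed in 4 of the 20 fits with 1 mouse left out, with an adjusted p of 0.16 when no filter on low counts was used (edgeR).

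Several ion channel genes fell in Tgαq*44 mice over the same interval. Of 28 potassium, sodium and chloride channel genes, 7 had a lower change in Tgαq*44 mice and 0 a higher one, beside 1.29% of all genes lower, with a median of -0.40. They were Clcn1, Hcn4, Scn4a, Scn4b, Kcnip2, Kcnv2 and Kcne1.

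Hcn4, the pacemaker channel of the sinus node and conduction system, was at 4.6002, 7.39, 9.09, 10.3 and 10.6 CPM in FVB mice at 8 months and 9.48, 7.62, 9.43, 8.75 and 8.39 CPM at 12 months. Levels in Tgαq*44 mice were 4.84, 3.77, 3.19, 4.76 and 4.69 CPM at 8 months and 1.19, 0.663, 0.566, 1.25 and 1.67 CPM at 12 months. Every 12-month Tgαq*44 mouse was below every other mouse. Its strain difference was -2.003 (SE 0.32, adjusted p = 0.00087) (edgeR).

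Clcn1 and Scn4a, the chloride and sodium channels of skeletal muscle, are given with the library that held skeletal muscle transcripts and without it. Clcn1 was at 1.005, 1.59, 1.56, 2.12 and 1.39 CPM in Tgαq*44 mice at 8 months and 0.356, 0.199, 0.242, 0 and 0.167 CPM at 12 months, with no count in mouse 4. FVB mice held 11.9 to 12.996 and 6.93 to 12.7 CPM. Mouse 4 at 8 months was the highest of its group at 2.12 CPM, and without it the gene differed by -2.21 (adjusted p = 0.0035), against -2.37 (SE 0.40, adjusted p = 0.0013) with it (edgeR). Scn4a was at 34.98, 32.5, 32.6, 32.6 and 29.4 CPM in Tgαq*44 mice at 8 months and 10.2 to 17.04 CPM at 12 months, against 49.9 to 92.7 and 78.9 to 97.4 CPM in FVB mice. Mouse 4 lay inside the range of its group, and the difference was -1.47 without it and -1.48 (SE 0.22, adjusted p = 0.00043) with it. Fam131b overlaps Clcn1 on the opposite strand.

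Subunits that tune cardiac currents made up the rest. Kcnip2, the partner of the transient outward potassium channel, differed by -0.80 (SE 0.15, adjusted p = 0.0032), and Scn4b, a β subunit of sodium channels, by -1.28 (SE 0.27, adjusted p = 0.0096). Kcne1, the partner of the slow delayed rectifier, and Kcnv2, a silent potassium channel subunit, differed by -1.41 (SE 0.35, adjusted p = 0.029) and -1.49 (SE 0.35, adjusted p = 0.019). Kcne1 passed in 12 of the 20 fits with 1 mouse left out and had an adjusted p of 0.10 with no filter on low counts, and Kcnv2 had an adjusted p of 0.053 by limma-voom (edgeR otherwise). Scn4b, Kcnv2 and Kcne1 had FVB changes of 0.59, 0.51 and 0.58, none of which passed.

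Of 37 genes of Gq signalling and its immediate targets, 3 had a lower change in Tgαq*44 mice, the receptors Adra1a, Adra1b and Agtr1a, and 0 a higher one, beside 1.29% of all genes lower, with a median of -0.21. Adra1b, an α1-adrenergic receptor, was at 30.7, 38.3, 55.9, 50.1 and 54.8 CPM in FVB mice at 8 months and 58.7, 68.3, 55.4, 74.99 and 59.4 CPM at 12 months. The Tgαq*44 values were 30.2, 39.3, 34.6, 36.01 and 42.4 CPM at 8 months and 11.995, 14.3, 20.4, 19.3 and 27.3 CPM at 12 months. The strains overlapped at 8 months and not at 12 months. It differed by -1.43 (SE 0.25, adjusted p = 0.0022). Adra1a, the other cardiac α1 receptor, fell from 5.78 ± 1.404 to 3.103 ± 0.637 CPM in Tgαq*44 mice and was 24.7 ± 3.79 and 37.3 ± 10.5 CPM in FVB mice, a difference of -1.50 (SE 0.29, adjusted p = 0.0044). Agtr1a, the angiotensin II type 1 receptor, differed by -0.70 (SE 0.17, adjusted p = 0.024) and passed in 17 of the 20 fits with 1 mouse left out, not without Tgαq*44 mouse 3 at 8 months or mouse 1 or 2 at 12 months, and its adjusted p was 0.10 with all 10 age groups in the fit (edgeR).

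In the renin-angiotensin-aldosterone system, Agtr1a and Mme were the 2 genes of 9 tested that passed, both lower, beside 1.29% of all genes lower. Mme, neprilysin, which degrades natriuretic peptides and angiotensins, was at 2.69 to 5.19 CPM at 8 months and 1.36 to 2.61 CPM at 12 months in Tgαq*44 mice. FVB mice held 7.84 to 14.9 and 8.88 to 18.03 CPM, and the difference was -1.51 (SE 0.33, adjusted p = 0.010). Ace, angiotensin-converting enzyme, did not pass, at 0.51 (SE 0.21, adjusted p = 0.24) (edgeR). Of 14 β-adrenergic signalling genes, 0 passed by edgeR, limma-voom or DESeq2, with 2 at an unadjusted p under 0.05.

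Gnb3, a G protein β subunit best known from photoreceptors, was among the 8 falls with the lowest p. It was at 12.6, 9.57, 13.8, 10.3 and 11.4 CPM in Tgαq*44 mice at 8 months and 2.91, 2.52, 1.29, 3.34 and 3.45 CPM at 12 months, against 14.99 to 27.1 and 16.9 to 22.04 CPM in FVB mice. The Tgαq*44 ages did not overlap. It differed by -1.89 (SE 0.25, adjusted p = 0.00021) (edgeR).

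Atp2a2, the calcium pump SERCA2 of the sarcoplasmic reticulum, was the 1 gene of 21 for calcium handling that passed. FVB mice held 11392, 12365, 12954, 13909.6 and 12991 CPM at 8 months and 10314, 10887, 11191, 11490.0 and 13589 CPM at 12 months. Tgαq*44 levels were 8313, 8202, 8537, 7592 and 8023 CPM at 8 months and 4431, 4547, 4943, 4383 and 4757 CPM at 12 months. The strains did not overlap at either age. The Tgαq*44 ages did not overlap either, with the older mice lower, and the difference in change was -0.67 (SE 0.14, adjusted p = 0.0061), with an adjusted p of 0.076 when no filter on low counts was used (edgeR).

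Efnb3 codes for ephrin-B3, a membrane ligand of Eph receptors, and was at 83.8, 62.2, 105, 95.5 and 121 CPM in FVB mice at 8 months and 89.3, 89.2, 87.5, 102 and 83.8 CPM at 12 months. Among Tgαq*44 mice it was at 28.95, 21.1, 26.7, 22.4 and 34.4 CPM at 8 months and 6.59, 3.65, 8.403, 6.16 and 7.13 CPM at 12 months. The 8-month Tgαq*44 mice were below all FVB mice, and the 12-month ones below all of 8 months. The difference was -2.01 (SE 0.25, adjusted p = 9.7e-05) (edgeR).

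Itgb6, the β6 integrin that frees latent TGF-β, was at 17.2, 10.8, 12.5, 11.5 and 13.1 CPM in Tgαq*44 mice at 8 months and 1.9002, 3.25, 3.56, 3.34 and 3.73 CPM at 12 months, with mouse 1 the lowest. FVB mice held 15.99 to 30.002 and 15.9 to 34.7 CPM. Itgb6 differed by -2.28 (SE 0.31, adjusted p = 0.00021) (edgeR). Slc22a3, an organic cation transporter that clears catecholamines, differed by -1.54 (SE 0.21, adjusted p = 0.00021) and Armc2 by -1.22 (SE 0.17, adjusted p = 0.00021).

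Fat2, a giant cadherin, differed by -2.70 (SE 0.47, adjusted p = 0.0016), Lrrc52, an auxiliary subunit of large-conductance potassium channels, by -2.57 (SE 0.42, adjusted p = 0.00091), and Lgi1, a secreted neuronal protein, by -2.38 (SE 0.51, adjusted p = 0.0093). Mettl11b, an N-terminal methyltransferase, differed by -2.30 (SE 0.55, adjusted p = 0.020) and did not pass without Tgαq*44 mouse 2 at 12 months (adjusted p = 0.057, edgeR). Vegfa, the main endothelial growth factor, was the 1 gene of 21 for angiogenesis and vascular tone that passed. It was at 319, 346, 367, 313 and 385 CPM in Tgαq*44 mice at 8 months and 242, 227, 192, 263 and 293 CPM at 12 months. FVB mice held 303, 319, 294, 318 and 370.1 CPM at 8 months and 321, 368, 365, 567 and 366 CPM at 12 months, with mouse 4 the highest. The 12-month Tgαq*44 mice were the lowest group and did not overlap with any other, and the difference was -0.82 (SE 0.19, adjusted p = 0.015). Of 12 endothelial markers 1 passed, Ly6c1, higher by 0.80 (SE 0.19, adjusted p = 0.019). Of 7 pericyte markers 0 passed by edgeR, limma-voom or DESeq2, and 0 at an unadjusted p under 0.05.

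Promoters of the genes that passed were read for the letters of known factors in the 250 bases before the start site, on both strands, in RefSeq promoters of GRCm38.p6. Of the 14779 genes tested 10818 had a promoter there, among them 130 of the higher and 139 of the lower genes. The site of MEF2, the muscle factor that acts downstream of hypertrophic signals, was present in 2.26% of all, in 3 of the 130 higher and in 12 of the 139 lower genes, that is 8.63% of the latter. The 12 were Asb18, Bri3, Capn3, Clcn1, Crhr2, Fhl2, Kbtbd12, Mylk4, Pfkfb1, Pla2g2d, Rpl3l and Tcea3. Letters of MEF2 can hold those of the TATA box (TATAAA), which were in 8.37% of all promoters and in 12.9% of those of the lower genes. MEF2 letters without TATAAA were in 1.77% of all, 2.31% of the higher and 5.04% of the lower. The letters GGAATG of TEAD factors were in 13.2%, 16.9% and 15.8%, those of ERR (AAGGTCA) in 3.65%, 6.15% and 5.76%, and those of AP-1 (TGANTCA) in 5.77%, 7.69% and 5.04% of the respective promoters. In the same order, letters of the CArG box were in 1.37%, 3.08% and 3.6%, and those of the E-box (CACGTG) in 9.84%, 7.69% and 7.19%. A match describes the letters alone.

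Promoters of 4 genes that passed, chosen after their values were seen, show how these letters sit at the start of 3 genes that fell and 1 that rose. Each runs 5′ to 3′ up to the base before the start site, with the MEF2 letters in capitals. They end 42 bases before the start in Clcn1 (chr6:42286435-42286684, + strand), 31 in Crhr2 (chr6:55133017-55133266, - strand), 22 in Fhl2 (chr1:43196762-43197011, - strand) and 65 in Xirp2 (chr2:67445752-67446001, + strand), where they hold no TATAAA.
Clcn1: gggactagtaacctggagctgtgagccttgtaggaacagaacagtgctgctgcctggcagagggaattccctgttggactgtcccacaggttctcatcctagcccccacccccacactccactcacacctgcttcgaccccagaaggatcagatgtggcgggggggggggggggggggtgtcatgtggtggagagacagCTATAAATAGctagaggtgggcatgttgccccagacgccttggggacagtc
Crhr2: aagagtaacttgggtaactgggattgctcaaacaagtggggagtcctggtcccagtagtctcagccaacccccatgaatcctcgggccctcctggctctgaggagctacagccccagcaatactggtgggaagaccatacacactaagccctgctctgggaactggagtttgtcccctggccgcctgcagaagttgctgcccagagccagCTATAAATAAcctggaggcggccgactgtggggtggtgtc
Fhl2: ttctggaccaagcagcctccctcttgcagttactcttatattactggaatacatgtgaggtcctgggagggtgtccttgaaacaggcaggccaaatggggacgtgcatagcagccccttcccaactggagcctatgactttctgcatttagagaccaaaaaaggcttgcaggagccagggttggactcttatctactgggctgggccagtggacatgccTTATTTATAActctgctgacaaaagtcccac
Xirp2: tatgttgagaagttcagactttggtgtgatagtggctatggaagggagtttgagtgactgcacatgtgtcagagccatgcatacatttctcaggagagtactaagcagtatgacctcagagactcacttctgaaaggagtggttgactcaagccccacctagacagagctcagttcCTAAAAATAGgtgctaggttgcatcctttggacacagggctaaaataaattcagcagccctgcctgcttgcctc

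Fhl2, a LIM-domain protein of the sarcomere, was at 662, 592, 631, 588 and 706 CPM in Tgαq*44 mice at 8 months and 309.6, 218, 365, 248 and 323 CPM at 12 months, and at 1147 to 1578 and 1052 to 1772 CPM in FVB mice. Crhr2, the receptor of the cardiac peptides urocortin, was at 20.003, 22.7, 21.95, 19.5 and 24.01 CPM and 8.61, 6.6999, 9.94, 11.1 and 12.1 CPM in Tgαq*44 mice at those ages, and at 39.6 to 64.2 and 50.2 to 59.3 CPM in FVB mice. In both genes the Tgαq*44 ages were apart and the FVB ages overlapped. They differed by -1.12 (SE 0.20, adjusted p = 0.0022) and -1.18 (SE 0.19, adjusted p = 0.00081). Rpl3l, the ribosomal protein L3 form of striated muscle, differed by -0.92 (SE 0.15, adjusted p = 0.00092) (edgeR).

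A smaller set of genes passed through a change in FVB mice. In 17 of the 365 genes the FVB change alone passed, in 5 of the higher and 12 of the lower genes, and in 4 lower genes both did.

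Tfrc, the transferrin receptor that takes up iron, was at 6.095, 7.72, 8.63, 5.38 and 4.95 CPM in FVB mice at 8 months and 26.2, 15.2, 24.98, 9.93 and 25.7 CPM at 12 months. Tgαq*44 levels were 23.6, 21.7, 15.3, 21.3 and 16.7 CPM at 8 months and 16.98, 19.2, 7.84, 8.36 and 16.3 CPM at 12 months. The 8-month FVB mice were the low group, and of the other 15 mice only Tgαq*44 mice 3 and 4 at 12 months fell inside their range. The FVB change was 1.63 (SE 0.27, adjusted p = 0.0071), that of Tgαq*44 mice -0.51 (SE 0.25, adjusted p = 0.21), and the difference -2.14 (SE 0.37, adjusted p = 0.0015) (edgeR).

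Ucp3, an uncoupling protein of muscle mitochondria induced by fatty acids, was at 15.99, 19.3, 15.4, 12.1 and 12.6 CPM in FVB mice at 8 months and 31.3, 47.8, 55.2, 31.6 and 28.3 CPM at 12 months. Levels in Tgαq*44 mice were 9.04, 7.18, 6.97, 6.98 and 4.83 CPM at 8 months and 2.49, 4.98, 7.03, 4.39 and 7.96 CPM at 12 months. FVB ages were apart, with the older mice higher, and the Tgαq*44 ages overlapped. The FVB change was 1.37 (SE 0.23, adjusted p = 0.0071) and the strain difference -1.74 (SE 0.34, adjusted p = 0.0043) (edgeR).

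Shisa6, known in the brain as an auxiliary protein of AMPA receptors, was at 0.805, 0.672, 1.17, 0.867 and 0.762 CPM in FVB mice at 8 months and 4.19, 4.39, 3.97, 3.82 and 1.97 CPM at 12 months, with mouse 5 the lowest. Tgαq*44 mice held 1.14 to 3.38 and 1.34 to 2.02 CPM, which overlapped. The difference was -2.47 (SE 0.43, adjusted p = 0.0017) and the FVB change 2.06. Tnfaip2, a cytokine-induced protein, rose in FVB mice from 42.6 ± 7.14 to 67.2 ± 5.59 CPM and was 57.6 ± 2.78 and 52.4 ± 5.17 CPM in Tgαq*44 mice, a difference of -0.79 (SE 0.15, adjusted p = 0.0035) (edgeR). Ppargc1b, the coactivator PGC-1β of mitochondrial genes, rose in FVB mice by 0.85 and differed by -0.91 (SE 0.23, adjusted p = 0.032), but passed in 11 of the 20 fits with 1 mouse left out and had an adjusted p of 0.063 with all 10 age groups in the fit (edgeR).

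Myom2, myomesin-2 of the sarcomere's M-band, went the other way and was the 1 of 24 sarcomere genes that passed. It was at 978, 721, 498, 605 and 578 CPM in FVB mice at 8 months and 354, 389, 349.7, 425 and 397 CPM at 12 months. The Tgαq*44 mice ranged over 554 to 802 and 615 to 801 CPM. All 12-month FVB mice were below the other 15, with a FVB change of -0.82 and a difference of 0.90 (SE 0.21, adjusted p = 0.016) (edgeR).

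**Figure D4:**
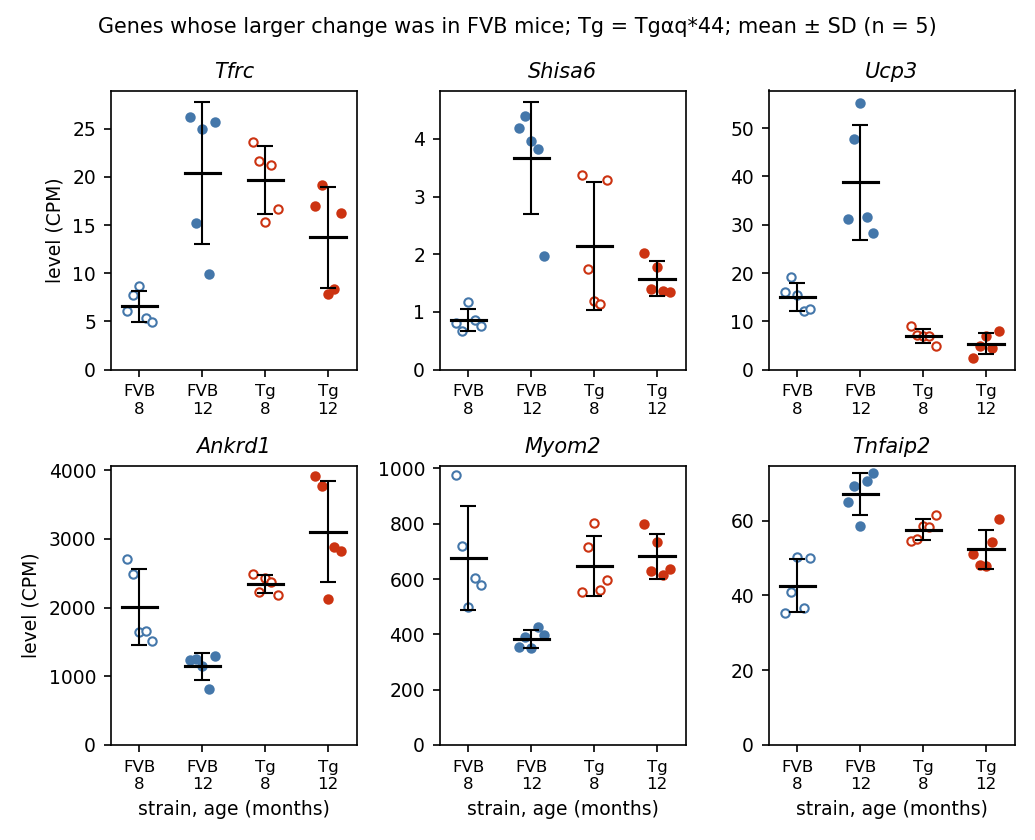
Level in each mouse (CPM, TMM-scaled, linear axis from 0) of Tfrc, Shisa6, Ucp3, Ankrd1, Myom2 and Tnfaip2 in FVB and Tgαq*44 mice at 8 and 12 months, with 5 points a group, a bar at the group mean and whiskers of ± SD. In these 6 genes the FVB mice of 8 and 12 months do not overlap, and the Tgαq*44 mice of the same ages do.

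Other genes changed with age in both strains, and their strain difference did not pass. Raph1, an actin-regulating adaptor, rose by 0.62 in FVB mice and 0.56 in Tgαq*44 mice, a difference of -0.06 (SE 0.14, adjusted p = 0.90). Klhl38, a kelch protein of striated muscle, fell by 0.75 and 0.59 on the log2 scale, a difference of 0.16 (SE 0.18, adjusted p = 0.77) (edgeR). Per3, a clock gene, fell in FVB mice (-1.04 (SE 0.18, adjusted p = 0.0098)) but its strain difference did not pass at 0.81 (SE 0.25, adjusted p = 0.096), and of 19 circadian clock genes 0 passed by edgeR or limma-voom and 1 by DESeq2, with 6 at an unadjusted p under 0.05. Genes the study discusses that also did not pass were Gdf15, a stress-induced cytokine, at -0.10 (SE 0.56, adjusted p = 0.97), Cdkn1a, the cell cycle inhibitor p21, at -0.42 (SE 0.39, adjusted p = 0.69), and Egr2, an immediate early gene, at -0.32 (SE 0.49, adjusted p = 0.84). Gdf15 was at 84.2 to 208 and 78.9 to 286 CPM in Tgαq*44 mice of the 2 ages and at 6.295 to 16.1 and 2.32 to 21.7 CPM in FVB mice, so the strains were apart at both ages and the ages overlapped.

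Immune markers gave few strain differences in change. Of 12 macrophage markers 0 passed by edgeR, limma-voom or DESeq2, with a median of 0.17 and 1 at an unadjusted p under 0.05, their summed level being 456 to 641 CPM at 8 months and 488 to 646 CPM at 12 months in Tgαq*44 mice. Of 37 interferon response genes 0 passed by these tools (median 0.42, 4 at an unadjusted p under 0.05), and of 21 antigen presentation genes 0 (median -0.02, 0 at an unadjusted p under 0.05). Of 8 T cell markers, 5 fell in the Tgαq*44 change, beside 5.64% of all genes. Among the 8, Cd8a alone passed the test of a difference at -2.35 (SE 0.60, adjusted p = 0.035, edgeR), beside 1.29% of all genes lower. Cd8a was at 1.64, 1.45, 1.26, 2.07 and 1.76 CPM in Tgαq*44 mice at 8 months and 0.9501, 0.0663, 0.485, 0.627 and 0.334 CPM at 12 months, passed in 13 of the 20 fits with 1 mouse left out, and had an adjusted p of 0.061 without mouse 4 at 8 months (edgeR). Its adjusted p was 0.14 with all 10 age groups in the fit and 0.052 by limma-voom. Without that mouse 4 of the 8 T cell markers fell in the Tgαq*44 change, and their median strain difference was -0.47 against -0.65 with it.

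The 4 B cell markers tested had a median of -3.00, and all 4 fell in the Tgαq*44 change, beside 5.64% of all genes. Without Tgαq*44 mouse 4 at 8 months the median was -0.80 and 2 of the 4 fell. None was counted as passing the test of a difference by edgeR, limma-voom or DESeq2, with 3 at an unadjusted p under 0.05. A gene for which a tool gave no adjusted p was counted as not passing. Igkc passed in 2 of the 8 alternatives with all mice that gave it an adjusted p, and Cd79a in 2 of 7. The 4 markers summed to 519 CPM in mouse 4 at 8 months and 8.76 to 12.95 CPM in Tgαq*44 mice at 12 months, with 16.3 to 30.3 CPM in the other 4 mice of 8 months. The other 4 mice were thus above all 12-month Tgαq*44 mice. Of 7 epicardial and mesothelial markers (median -1.46, and -0.59 without that mouse), Muc16 passed at -3.40 (SE 0.72, adjusted p = 0.0090). It was at 0.913, 0.942, 0.593, 3.41 and 0.732 CPM in Tgαq*44 mice at 8 months and 0.238, 0.796, 0.404, 0.627 and 0.278 CPM at 12 months, and at 0.345, 0.336, 0.195, 0.173 and 0.838 and 0.615, 1.31, 1.49, 1.84 and 1.54 CPM in FVB mice at those ages. Without Tgαq*44 mouse 4 at 8 months it differed by -2.59 (adjusted p = 0.016, edgeR). Of the 57 lists examined, 24 held at least 1 gene that passed.

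The mice of 10 and 14 months, which did not enter the test, show where the 12-month level sits in the course of the disease. Levels in this paragraph are CPM scaled over all 50 libraries and are a description. Cytl1 in Tgαq*44 mice was 74.9 to 118 CPM at 10 months and 106 to 184 CPM at 14 months, against 100.2 to 174 CPM at 12 months, so it stayed high. Xirp2 was 703 to 1346 CPM at 10 months and 769.9 to 1462 CPM at 14 months, against 1539 to 2111 CPM at 12 months, and so was highest at 12 months. Col12a1 had medians of 3.98, 12.3, 25.1 and 18.6 CPM at 8, 10, 12 and 14 months.

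Clcn1 in Tgαq*44 mice was at 0.142 to 0.343 CPM at 10 months, inside the range of 12 months, and Bdh1 was at 109.6 to 185 CPM, between the ages compared. Bdh1 in FVB mice had medians of 245, 256, 324 and 246 CPM at the 4 ages, highest at 12 months. Ucp3 in FVB mice had medians of 15.4, 11.8, 31.3 and 26.9 CPM, and Tfrc of 6.01, 8.66, 24.9 and 13.1 CPM. In these 3 genes the FVB level at 12 months was above that at 8, 10 and 14 months.

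**Figure D5:**
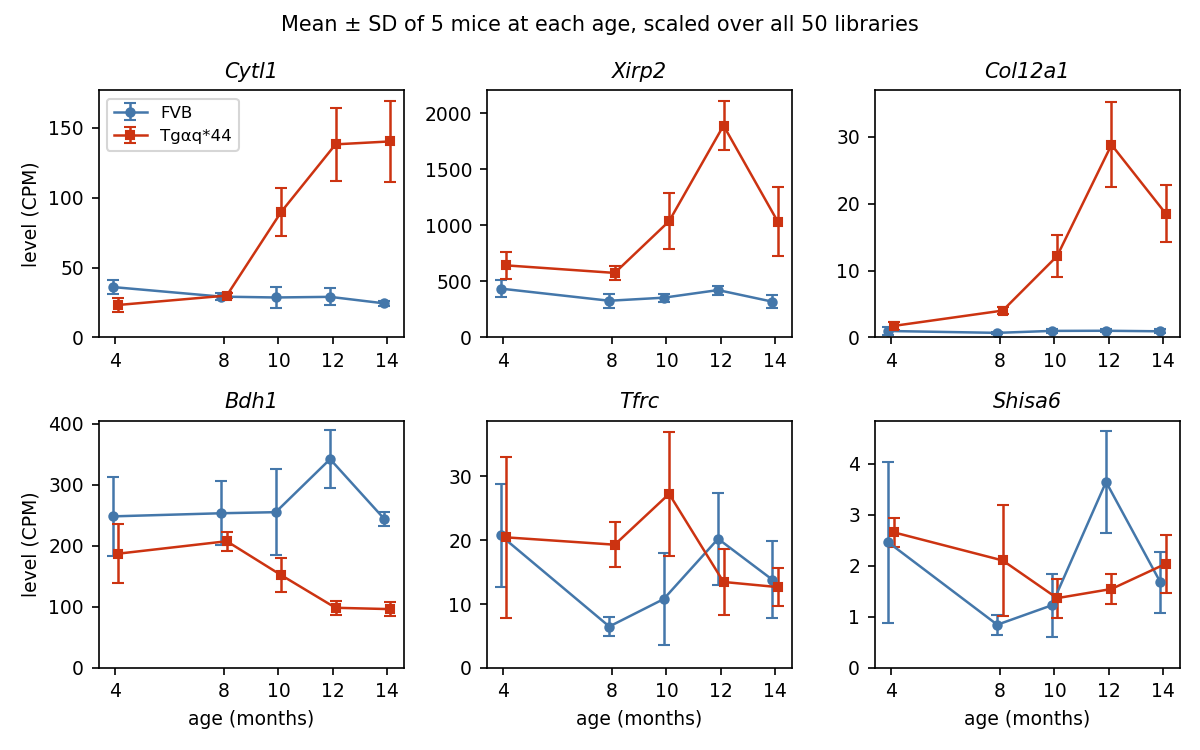
Mean level (CPM scaled over all 50 libraries, linear axis from 0, bars ± SD, 5 mice a point) of Cytl1, Xirp2, Col12a1, Bdh1, Tfrc and Shisa6 in FVB and Tgαq*44 mice at 4, 8, 10, 12 and 14 months. Xirp2 and Col12a1 in Tgαq*44 mice are highest at 12 months, Cytl1 stays high at 14 months, Shisa6 in FVB mice is highest at 12 months, and Tfrc in FVB mice averages 20.8 ± 8.03 (4 months) and 20.2 ± 7.24 CPM (12 months), above the ages between.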

How the data were processed

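RNA-seq of the apex of the heart from 20 mice was analysed. The authors prepared polyA-selected libraries with the Lexogen Sense kit. Per the study's methods, Cutadapt and FastQC served for trimming and quality control, STAR for alignment to GRCm38.p6, and HTSeq for counting on exons, and the deposited table holds the raw counts per gene. The study sequenced its libraries in several runs. Tool versions, strand setting and the run of each library: not given in the sources used here. An effect of run thus cannot be told apart from one of strain or age. Deposited columns of fold changes and p-values from the authors' comparisons were not used.

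A gene was kept (14779 of 54532) if over 0.5 CPM in more than 3 mice of any of the 4 groups. TMM factors, the quasi-likelihood fit (edgeR 4.0.16, R 4.3.3) and a group means model gave the contrasts, with Benjamini-Hochberg adjustment over all genes tested. The standard error (SE) of a log2 difference was computed from its F statistic. P-values measure the spread between mice. Alternatives were limma-voom (limma 3.58.1), DESeq2 1.42.0, other scaling, filters and groups, a replicate block and leaving out each mouse. The fit was tested on simulated data.

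Genes named were the 12 largest and the 8 of lowest p in each direction with a mean of at least 1 CPM, up to 6 members of each list, the 5 of lowest p per direction in each strain's own change, and genes the study names. Fhl2, Crhr2, Igkc, Cd79a, Gnb3, Lox, Loxl3, Eln, Kcne1, Acadvl, Cpt2, Col1a2, other list members that passed and marker genes of the library that stood apart were chosen after their values were seen. Members, lists and tests were chosen with earlier results of these data known. Results of 2 genes that the rule names are not reported here. Depth limits precision for genes of a few counts.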

Additional observations from a re-analysis of the deposited data

Results flagged for a closer look

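In groups of 5 mice, 33 single values lay outside Dixon's 95% limit, which is 8.09% of the 408 groups of values examined, where chance gives about 5%. No cause of these gaps was tested. Tgαq*44 mouse 4 at 8 months was the highest of its group in Otulin at 35.1 CPM (others 32.1 to 32.8), Nppa at 1747 CPM (others 716 to 978), Igkc at 248 CPM (others 2.82 to 5.39), Cd79a at 6.52 CPM (others 0.652 to 1.02) and Muc16 at 3.41 CPM (others 0.593 to 0.942). Tgαq*44 mouse 4 at 8 months was the lowest of its group in Lpl at 1597 CPM (others 2041 to 2215). FVB mouse 4 at 12 months was the highest of its group in Ckmt1 at 1.64 CPM (others 0.231 to 0.428) and Vegfa at 567 CPM (others 321 to 368). FVB mouse 4 at 12 months was the lowest of its group in Ankrd1 at 807 CPM (others 1151 to 1290.1). Tgαq*44 mouse 3 at 12 months was the highest of its group in Lgi2 at 9.696 CPM (others 3.91 to 5.33), Des at 7812 CPM (others 5506 to 6089.9) and Kcne1 at 1.29 CPM (others 0.416 to 0.668). FVB mouse 1 at 8 months was the highest of its group in Fgf23 at 0.46002 CPM (others 0 to 0.112), Myh7 at 1108 CPM (others 600.01 to 733) and Per3 at 66.8 CPM (others 36.2 to 42.5). Tgαq*44 mouse 4 at 12 months was the highest of its group in Kcnip2 at 291 CPM (others 208 to 232), Lgi1 at 0.418 CPM (others 0 to 0.119) and Mettl11b at 0.418 CPM (others 0.0663 to 0.167). Tgαq*44 mouse 3 at 8 months was the lowest of its group in Postn at 181 CPM (others 209 to 219) and Ckmt1 at 3.04 CPM (others 3.81 to 3.99). Tgαq*44 mouse 5 at 12 months was the lowest of its group in Rims2 at 2.67 CPM (others 4.93 to 5.82) and Lpl at 1262 CPM (others 1577 to 1677). FVB mouse 5 at 12 months was the highest of its group in Cyp26b1 at 28.9 CPM (others 3.75 to 4.19). FVB mouse 5 at 12 months was the lowest of its group in Shisa6 at 1.97 CPM (others 3.82 to 4.39). FVB mouse 5 at 8 months was the highest of its group in Gdf15 at 16.1 CPM (others 6.295 to 7.5004) and Muc16 at 0.838 CPM (others 0.173 to 0.345). FVB mouse 1 at 12 months was the highest of its group in Xirp2 at 496 CPM (others 402 to 417). Tgαq*44 mouse 2 at 12 months was the highest of its group in Cdkn1a at 165 CPM (others 71.3 to 95.5). FVB mouse 2 at 8 months was the highest of its group in Itgb6 at 30.002 CPM (others 15.99 to 19.9). Tgαq*44 mouse 1 at 12 months was the lowest of its group in Itgb6 at 1.9002 CPM (others 3.25 to 3.73). FVB mouse 3 at 8 months was the lowest of its group in Cd8a at 0.195 CPM (others 0.533 to 0.607). Tgαq*44 mouse 2 at 8 months was the lowest of its group in Ly6c1 at 182 CPM (others 203 to 209). Tgαq*44 mouse 1 at 8 months had 19.04% of its counts in mitochondrially encoded genes, against 15.2 to 16.2% in the other 4.

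The change from 8 to 12 months differed between the strains in 365 genes by edgeR's test of the difference itself, and the genes named above that passed were the following, as log2 strain differences in change. Among matrix and TGF-β genes the difference was 2.33 for Col12a1, 2.25 for Comp, 1.83 for Lox, 1.56 for Ctgf, 1.48 for Thbs4, 1.28 for Ltbp2, 1.26 for Cilp, 0.92 for Loxl3, 0.90 for Eln, 0.80 for Postn, 0.80 for Dcn, 1.57 for Tgfb2, 0.93 for Bmp6, 0.99 for Bmp4, 0.95 for Tgfbr1, 0.49 for Tgfbr2 and 1.49 for Pamr1. Among muscle genes the difference was 1.35 for Xirp2, 1.21 for Ankrd1, 0.90 for Myom2, 2.69 for Ryr3, -0.67 for Atp2a2, -0.92 for Rpl3l and -1.12 for Fhl2. Among secreted, immune and endothelial genes the difference was 2.22 for Cytl1, 1.31 for Il33, 1.52 for Ccl9, 1.25 for Ccl6, 1.30 for Cxcl14, -1.61 for Ccl7, 1.51 for Reln, 0.998 for Lyve1, 0.80 for Ly6c1, 2.12 for Ahsg, -0.82 for Vegfa, -2.35 for Cd8a, -0.79 for Tnfaip2 and -3.40 for Muc16. Among neuronal and other genes at low level the difference was 3.61 for Rims2, 3.24 for Lgi2, 2.40 for Gnal, 2.41 for Ckmt1, 2.33 for Adgra1, 2.09 for Fam180a, -2.70 for Fat2, -2.57 for Lrrc52, -2.38 for Lgi1, -2.30 for Mettl11b and -2.47 for Shisa6. Among enzymes and fuel genes the difference was 1.81 for Fmo2, 0.93 for Otulin, 3.28 for Cyp26b1, -1.51 for Bdh1, -3.07 for Acox2, -1.80 for Ces1d, -0.89 for Eci1, -1.74 for Ucp3, -0.64 for Hadha, -0.53 for Etfdh, -0.65 for Acaa2, -0.78 for Fabp3, -0.55 for Sdhc, -1.03 for Dgat2, -0.55 for Lpl, -0.91 for Ppargc1b and -1.51 for Mme. Among channels, receptors and transporters the difference was -2.37 for Clcn1, -2.003 for Hcn4, -1.48 for Scn4a, -0.80 for Kcnip2, -1.28 for Scn4b, -1.41 for Kcne1, -1.49 for Kcnv2, -1.50 for Adra1a, -1.43 for Adra1b, -0.70 for Agtr1a, -1.18 for Crhr2, -1.89 for Gnb3, -1.54 for Slc22a3 and -2.14 for Tfrc. Among adhesion and remaining genes the difference was -2.28 for Itgb6, -2.01 for Efnb3 and -1.22 for Armc2.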

How the results depend on the processing

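Counts of genes passing the test moved more than names. For the strain difference in change, 365 became 588 by DESeq2 and 149 at an adjusted p under 0.01. That threshold gave 882 genes for the Tgαq*44 change, 9 for the FVB change and 2945 for the strains at 8 months. The FVB count of 50 became 115 with all 10 groups in the fit, 261 by DESeq2 and 149 with no filter on low counts. The remaining 94 values of counts and shares under alternatives that kept all mice stayed within the limits set. The cause was not tested.

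Leaving out each mouse in turn gave 273 to 535 genes for the strain difference, 158 to 271 DEGs, 1310 to 2167 genes for the Tgαq*44 change, 15 to 170 for the FVB change, and 3801 to 5422 and 5462 to 6408 for the strains at 8 and 12 months. Lists gave 10 to 13 collagen and matrix, 4 to 6 TGF-β, 4 to 6 activated fibroblast, 3 to 9 fatty acid oxidation and 6 to 7 channel genes. The mitochondrial share changed by -4.91 to -2.08 percentage points in FVB mice (exact permutation p 0.040 to 0.35) and by -2.35 to -1.31 in Tgαq*44 mice (exact permutation p 0.016 to 0.071).

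For the named genes, alternatives that kept all mice left 854 values on the same side of the threshold, moved 22 out and 20 in, and turned 1, Gdf15 by limma-voom at 0.083 (adjusted p = 0.97). With 1 mouse left out 1818 stayed, 161 moved out and 15 in, and 6 turned. Gdf15 ran from -0.48 to 0.25 over the 20 fits and was above 0 in 5 of them, without FVB mouse 3 at 8 months (0.0015) or 4 at 12 months, or Tgαq*44 mouse 4 (0.017) or 5 (0.023) at 8 months or 3 at 12 months (0.10). Raph1 ran from -0.11 to 0.0046, the latter without Tgαq*44 mouse 5 at 12 months. Neither gene passed the test with all mice.

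Mouse numbers were shared across groups in the labels. Deviations of same-numbered mice correlated at -0.0655 to 0.498, over 0.1 in 20 of 30 pairs, and the own number was best in 29 of 60 comparisons, where 1 in 5 would give 12. This is a hint of a shared factor from the data, not from the design, and since 10 pairs were at or under 0.1 the mice were not taken as paired. With the number as a replicate block, 716 genes passed for the strain difference and 248 for the FVB change, with 12 fatty acid oxidation and 11 channel genes lower.

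Depth limits genes of a few counts, such as Fgf23 and Mettl11b.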
